A study of Mus musculus with 12 samples.

Results

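The T cell receptor signalling genes described here are 9 mouse genes, taken as the rows of the count table whose Ensembl identifier maps to the symbols Cd3d, Cd3e, Cd3g, Trbc2, Lck, Lat, Zap70, Prkcq and Skap1. They are 9 of the 49315 genes in the table, picked by symbol with earlier results of these data known. RNA-seq read counts per gene were available for 12 libraries from C57BL/6 mice, with 3 libraries in each of 4 groups. Group 2 innate lymphoid cells (ILC2s), tissue lymphocytes that make type 2 cytokines, had been sorted from lung after removal of lineage-positive cells, grown up in a mixture of IL-25, IL-33, IL-7 and IL-2, and moved for 48 h to IL-7 plus IL-2. Eosinophils, granulocytes of type 2 immunity, were the blood fraction left after beads had taken B220-positive and CD90-positive cells, and had been given IL-33 for 24 h. After washing, the cells spent 24 h in medium without cytokines, together or apart, and cocultured cells were parted again by flow cytometry. The groups were therefore ILC2s cultured with IL-33-activated eosinophils, ILC2s cultured alone, IL-33-activated eosinophils cultured with ILC2s, and IL-33-activated eosinophils cultured alone. Neither cell had received an antigen receptor stimulus as far as the labels say, and the sources used here do not give the age or sex of the mice or the number of animals behind a library. Whether the replicates were separate cultures or mice is not stated in the labels, and p-values here reflect the spread of these libraries only, which may be technical.

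In a T cell, an antigen receptor that carries alpha and beta chains, or gamma and delta chains, binds its ligand and signals through the CD3 gamma, delta and epsilon chains and the zeta chain (Cd247). The kinase LCK phosphorylates motifs in these chains, ZAP-70 docks there and phosphorylates the scaffold LAT, and LAT gathers the enzymes that lead to calcium release, RAS and, through protein kinase C theta (Prkcq), NF-kB. SKAP1 is an adaptor that links the receptor to integrin adhesion. ILC2s descend from lymphoid progenitors that share early steps with T cells, lack a surface antigen receptor and are known to hold transcripts of some of these genes, including rearranged or germline receptor segments.

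The 3 CD3 genes lie next to each other within 40056 bases of mouse chromosome 9 (GENCODE M21 annotation of GRCm38). Cd3g runs on the minus strand from 44969572 to 44980431, Cd3d on the plus strand from 44981786 to 44987339 and Cd3e on the minus strand from 44998740 to 45009627. The annotated starts of Cd3g and Cd3d point away from each other and are 1355 bases apart. The start windows of these 3 neighbours are shown because the genes stood at very different levels in the same cells. Each window runs from 250 bases before to 50 bases after the RefSeq start, on the gene's own strand (GRCm38.p6), and capitals mark every match, on either strand, to 4 short motifs of factors known in lymphocytes, namely the GATA motif spelled AGATAA, the ETS motif spelled AGGAAG, the RUNX motif spelled TGTGGT and the E-box spelled CAGGTG, no matches of which overlap in these windows.
Cd3g, chr9:44980382-44980681, minus strand: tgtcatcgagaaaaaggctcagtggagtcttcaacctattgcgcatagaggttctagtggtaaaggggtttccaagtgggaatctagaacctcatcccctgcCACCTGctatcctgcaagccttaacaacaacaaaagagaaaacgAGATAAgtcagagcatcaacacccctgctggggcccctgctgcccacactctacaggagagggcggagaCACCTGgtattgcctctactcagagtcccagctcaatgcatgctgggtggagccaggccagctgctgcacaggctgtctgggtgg
Cd3d, chr9:44981536-44981835, plus strand: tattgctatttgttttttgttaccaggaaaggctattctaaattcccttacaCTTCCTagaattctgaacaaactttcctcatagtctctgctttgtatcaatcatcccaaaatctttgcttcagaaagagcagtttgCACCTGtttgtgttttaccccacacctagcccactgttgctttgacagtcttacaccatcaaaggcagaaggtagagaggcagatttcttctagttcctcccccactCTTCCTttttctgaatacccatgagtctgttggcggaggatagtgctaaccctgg
Cd3e, chr9:45009562-45009861, minus strand: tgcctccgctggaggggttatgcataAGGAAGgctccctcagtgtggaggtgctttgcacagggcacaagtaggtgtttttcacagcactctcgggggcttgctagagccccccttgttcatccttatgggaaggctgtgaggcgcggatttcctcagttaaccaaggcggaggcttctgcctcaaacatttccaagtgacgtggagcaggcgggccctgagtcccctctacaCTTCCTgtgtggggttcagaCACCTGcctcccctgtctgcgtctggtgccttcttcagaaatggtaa
The Cd3g window held 1 GATA match and 2 E-box matches, and the Cd3d and Cd3e windows each held 2 ETS matches and 1 E-box match. These motifs are common, since 11.2% of the 32851 RefSeq windows of 300 bases held the GATA letters, 35.4% the ETS letters, 16.8% the RUNX letters and 20.2% the E-box letters. RefSeq start windows were matched for 7 of the 9 genes, with 10 windows in all. The window at the upstream Lck start held 3 ETS matches, 1 RUNX match and 1 E-box match, and the Lat window held 2 ETS matches and 1 RUNX match. The other Lck window held 1 ETS match and 1 E-box match, and the Prkcq window held 1 ETS match. The Zap70 windows, from the most upstream start on, held 1 ETS match and 2 E-box matches, then 2 ETS matches and 1 RUNX match, then 1 E-box match. A match describes the letters in the window and not a bound site.

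The libraries held between 16769929 and 22928961 counts, and the floor of a library, set at 3 counts, was 0.131 to 0.179 CPM, where 1 CPM is 1 count in 1000000 counts of the library. By library totals, ILC2 markers summed to 6137 to 6761 CPM in ILC2s with eosinophils and to 8660 to 8791 CPM in ILC2s alone, and all 9 of them passed the test as higher in ILC2s alone than in eosinophils alone. Il7r was the ILC2 marker with the largest difference in coculture (log2 fold change -2.55 ± 0.051). By library totals, the 5 eosinophil markers summed to 1.34 to 2.46 CPM in ILC2s with eosinophils and to 1.67 to 1.93 CPM in ILC2s alone, against at least 2913 CPM in every eosinophil library. In bulk RNA, fewer cells that hold a transcript and less of it per cell cannot be told apart.

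All 9 genes had counts in every ILC2 library, and 7 of them stood at or below 0.684 CPM in every eosinophil library. By library totals, Zap70 stood between 338 and 356 CPM in ILC2s with eosinophils and between 324 and 347 CPM in ILC2s alone, against 0.0486 to 0.263 CPM in eosinophils with ILC2s and 0.169 to 0.366 CPM in eosinophils alone. Cd3d and Prkcq broke this pattern and were higher in eosinophils than in ILC2s in both conditions, as the plot of all 12 libraries shows.

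**Figure D1:**
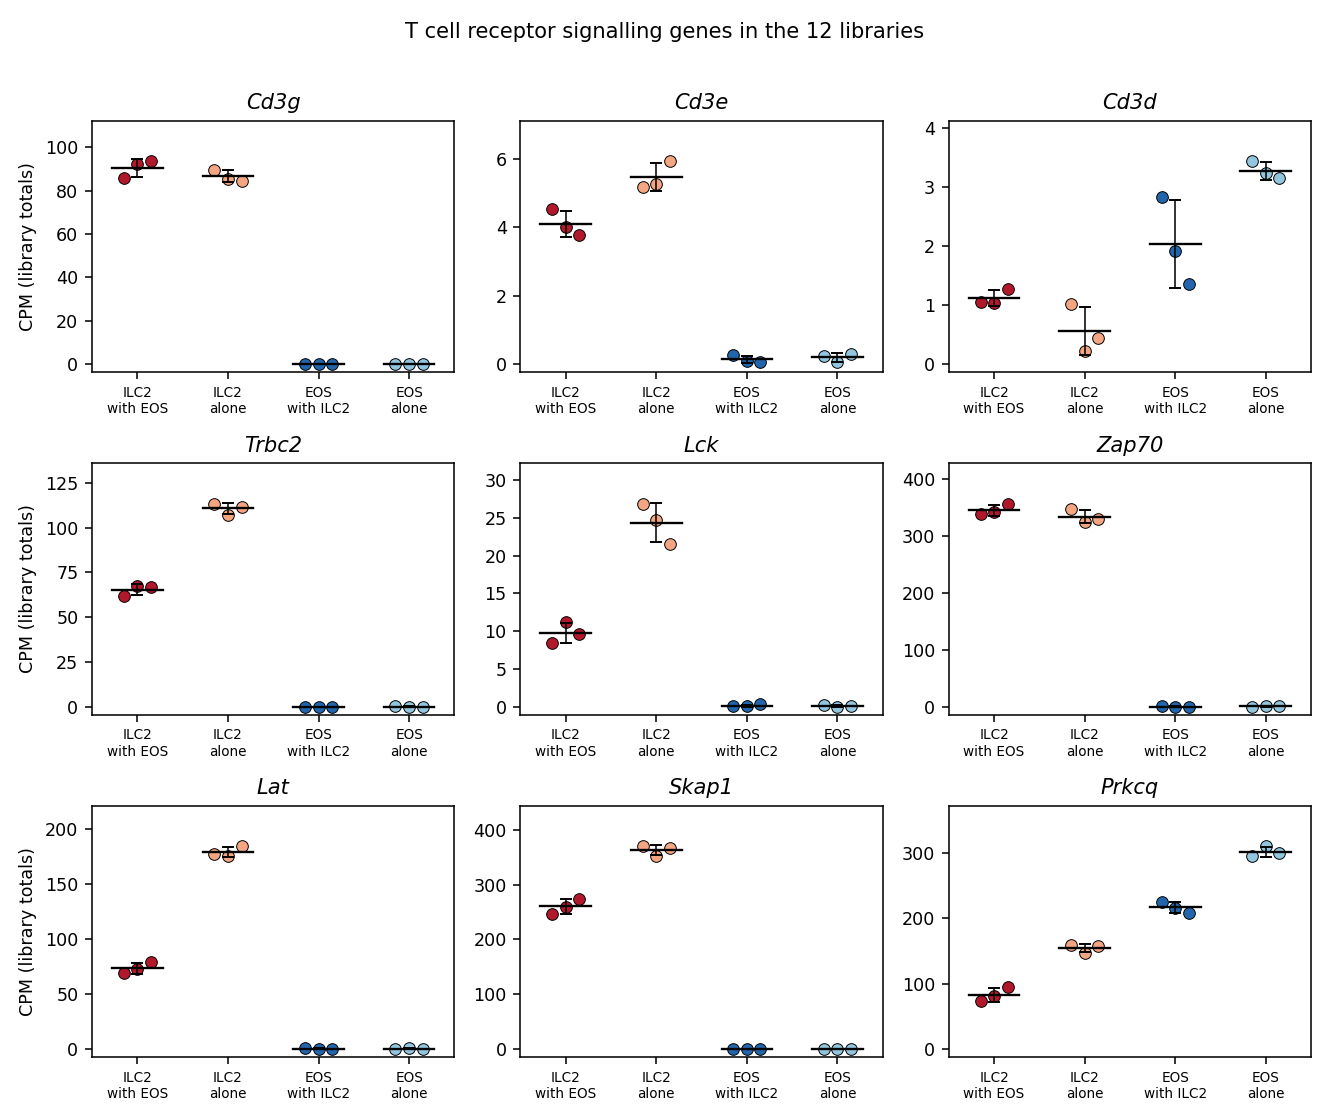
CPM by library totals of the 9 genes (vertical axes, each from 0) in ILC2s with eosinophils (EOS), ILC2s alone, eosinophils with ILC2s and eosinophils alone. Points are libraries, bars are means of 3 libraries and whiskers are SDs. Trbc2, Lck, Lat and Skap1 were lower in all 3 cocultured ILC2 libraries than in any ILC2 library alone, Cd3g and Zap70 overlapped between these groups on this scale, and Prkcq was lower after coculture in both cells.

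Coculture with eosinophils went with lower transcript levels of 5 of the 9 genes in ILC2s and higher levels of 3. Lck fell 2.24-fold and Lat 2.18-fold by the fit, and Prkcq, Trbc2 and Skap1 fell less. Cd3d, Cd3g and Zap70 rose, Cd3g 1.17-fold and Zap70 1.15-fold, and these small rises did not pass under scaling by library totals. The fitted model (edgeR quasi-likelihood test, TMM scaling, Benjamini-Hochberg adjusted over all genes) called 36.8% of the 14438 genes tested higher and 35.6% lower, so calls were common across the transcriptome. The median log2 fold change of the 9 genes was -0.32, beside 0.00 over all genes tested. The values of the libraries did not overlap between the ILC2 groups for any of the 9 genes on the TMM scale, which was also so for 74.9% of all genes tested.

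**Figure D2:**
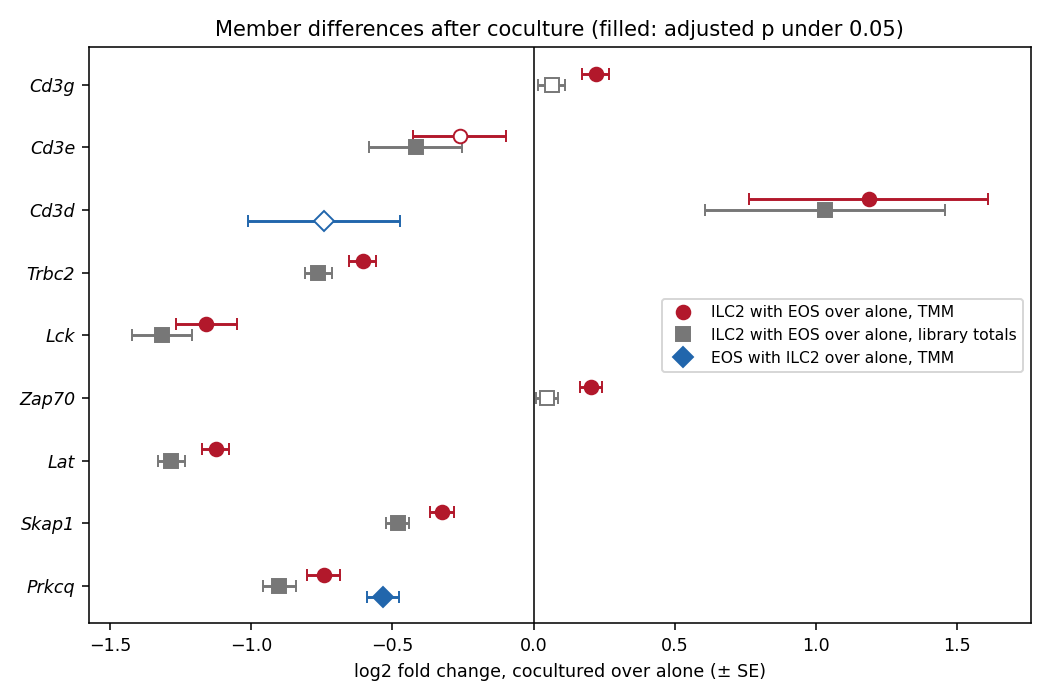
Log2 fold change of each gene with its SE (horizontal axis), for ILC2s with eosinophils over ILC2s alone under TMM scaling (circles) and under library totals (squares), and for eosinophils with ILC2s over eosinophils alone (diamonds, the 2 genes tested there). Filled symbols passed an adjusted p of 0.05. Cd3g and Zap70 are filled under TMM and open under library totals, and Cd3d lies on opposite sides of 0 in the 2 cells.

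The CD3 chains differed in level and in call. Cd3g, the gamma chain, was by far the most abundant, also per length. Its libraries held 90.1, 97.3 and 99.5 CPM in ILC2s with eosinophils, against 85.5, 80.9 and 80.2 CPM in ILC2s alone (TMM-scaled CPM, used below unless another scale is named; means are given ± SD over n = 3 libraries and log2 fold changes ± SE). The lowest cocultured library stood above the highest library of ILC2s alone, with a log2 fold change of 0.22 ± 0.049 (edgeR adjusted p = 0.000197). With library totals as the scale, which lowered the median of all genes by a shift of -0.16, the Cd3g difference was 0.06 and no longer passed (edgeR adjusted p = 0.232).

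Cd3e, the epsilon chain that pairs with gamma or delta, had 95, 81 and 83 counts in ILC2s with eosinophils, against 87, 93 and 136 in ILC2s alone. Scaled, these were 4.76, 4.24 and 4.02 CPM with eosinophils and 4.94, 4.99 and 5.63 CPM alone. The cocultured libraries were all below those of ILC2s alone but close to them, and the log2 fold change of -0.26 ± 0.17 did not pass (edgeR adjusted p = 0.157). Under library totals it was -0.42 and passed (edgeR adjusted p = 0.0250). An antisense gene, Gm48719, shares 135 exonic bases with Cd3e and held 3 counts in ILC2s with eosinophils and 10 in ILC2s alone.

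Cd3d, the delta chain, was near the floor in ILC2s, with 22, 21 and 28 counts in those cultured with eosinophils and 17, 4 and 10 in those cultured alone. These gave 1.10, 1.10 and 1.35 CPM with eosinophils, against 0.965, 0.215 and 0.414 CPM alone. The cocultured libraries lay close together and the libraries of ILC2s alone spread widely. The log2 fold change was 1.19 ± 0.42 (edgeR adjusted p = 0.0140). This call rested on few counts. It was 0.83 (edgeR adjusted p = 0.0941) without the library of ILC2s alone replicate 2, 1.02 (0.0728) without replicate 3 of that group, 1.08 (0.0617) without replicate 3 of ILC2s with eosinophils, and 1.85 (edgeR adjusted p = 0.00142) without replicate 1 of ILC2s alone.

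Per length, Cd3g stood far above the other chains in both ILC2 groups. Divided by the kilobases of annotated exon, Cd3g exceeded Cd3e 27.7 ± 3.74 times in ILC2s with eosinophils and 19.9 ± 1.92 times in ILC2s alone (ratio of CPM per kb, SD, n = 3). Against Cd247, the zeta chain, Cd3g stood at 29.7 ± 1.12 times in ILC2s with eosinophils and 20.3 ± 0.678 times in ILC2s alone. Against Cd3d it stood at 45.1 ± 4.17 times with eosinophils and 122 ± 81.0 times alone, and Cd3e exceeded Cd3d 1.65 ± 0.306 times with eosinophils and 6.22 ± 4.04 times alone, where Cd3d had 4 to 17 counts a library. Cd247 itself fell in coculture, to 5.24 ± 0.0795 CPM with eosinophils, against 6.62 ± 0.0601 CPM alone (log2 fold change -0.34 ± 0.14, edgeR adjusted p = 0.0389). No test was run on these ratios.

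Trbc2 encodes a constant region of the receptor beta chain and lies on chromosome 6 (positions of this and the following genes are from the same annotation) from 41546730 to 41548352 on the plus strand. It had 65.2, 71.0 and 71.0 CPM in ILC2s with eosinophils, against 108, 102 and 106 CPM in ILC2s alone. All cocultured libraries were well below all others, with a log2 fold change of -0.61 ± 0.048 (edgeR adjusted p = 3.89e-12). Its near-identical neighbour Trbc1 went the other way, at 9.72 ± 1.22 CPM with eosinophils and 6.88 ± 1.29 CPM alone (log2 fold change 0.50 ± 0.14, edgeR adjusted p = 0.00257). The ratio of Trbc2 to Trbc1 per kb was 7.80 ± 1.31 in ILC2s with eosinophils and 16.9 ± 2.85 in ILC2s alone. Both values are uncertain, since reads that fit both copies can be split or dropped in counting and the sources used here do not give how such reads were handled.

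The beta constant gene was part of a wider set of receptor transcripts. Of 268 annotated receptor segments and constant genes, 134 had counts in some library, and together they summed to 332 to 357 CPM in ILC2s with eosinophils and to 415 to 442 CPM in ILC2s alone (library totals). The 3 with most counts in ILC2s were Tcrg-C4, Trbc2 and Tcrg-C1. The gamma constant genes Tcrg-C4 (log2 fold change 0.30 ± 0.043) and Tcrg-C1 (0.48 ± 0.059) rose in coculture while Tcrg-C2 fell (-1.01 ± 0.21). In ILC2s with eosinophils Tcrg-C2 held 36 to 71 counts a library, against 1548 to 1780 for Tcrg-C1. Reads that fit more than 1 of these genes set the same limit as for Trbc2 and Trbc1. Trdc, the delta constant gene, fell as well, to 1.68 ± 0.818 CPM with eosinophils, against 3.10 ± 0.649 CPM alone (log2 fold change -0.87 ± 0.28, edgeR adjusted p = 0.00734). Trac, the alpha constant gene, stood at 1.31 ± 0.502 CPM with eosinophils and 2.08 ± 0.627 CPM alone and did not pass (edgeR adjusted p = 0.0764).

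Sums over variable, diversity and joining segments were not tested and are given by their ranges over libraries, TMM-scaled. Those of the delta locus came to 11.2 to 11.8 CPM in ILC2s with eosinophils and to 43.7 to 52.8 CPM in ILC2s alone, almost all of it from Trdv4 (log2 fold change -2.10 ± 0.084). The beta segments summed to 15.5 to 20.1 CPM with eosinophils and 23.8 to 25.5 CPM alone, and the gamma segments to 17.0 to 19.5 CPM with eosinophils and 26.2 to 29.5 CPM alone. The alpha segments were few, at up to 3.35 CPM with eosinophils and 3.06 to 4.02 CPM alone. The delta, beta and gamma sums were lower with eosinophils without overlap, on this scale and by library totals. The alpha sums overlapped on this scale but not by library totals, at 1.41 to 3.18 CPM with eosinophils and 3.22 to 4.25 CPM alone. Trdv4 was named after its values were seen.

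Markers of T cells were examined beside these results, as CPM by library totals. Of the 10 alpha beta T cell markers, the coreceptor gene Cd4 had 2 counts over the libraries of ILC2s with eosinophils and 4 over those of ILC2s alone, Cd8a had 4 counts with eosinophils and 0 alone, and Cd8b1, Cd5 and Cd6 stood at or below 0.191 CPM in every ILC2 library. The list summed to 13.3 to 17.9 CPM in ILC2s with eosinophils and to 21.4 to 27.2 CPM in ILC2s alone, led by Trbc1 and Themis. By the TMM fit 5 of the list were tested, and Trbc1 rose while Trac and Cd40lg did not pass. Themis fell, to a mean of 3.82 CPM with eosinophils, against 9.86 CPM alone (TMM-scaled, log2 fold change -1.35 ± 0.17, edgeR adjusted p = 5.46e-08). Foxp3 fell too, with libraries that overlapped between the groups (-0.93 ± 0.31, edgeR adjusted p = 0.00834). The 6 gamma delta T cell markers summed to 215 to 229 CPM with eosinophils and 193 to 208 CPM alone, nearly all of it from the gamma constant genes. Natural killer cell markers summed to 3.23 to 4.05 CPM with eosinophils and 1.85 to 2.496 CPM alone, and of these Prf1 rose by the TMM fit (log2 fold change 1.21 ± 0.26). B cell markers summed to 8.96 to 9.46 CPM with eosinophils and 7.66 to 9.90 CPM alone, led by Cd79b. The part of other lymphocytes in the receptor and CD3 transcripts was not tested.

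Of the kinases of the first steps, Lck fell and Zap70 rose slightly, and Zap70 lost its call under library totals. Lck, on chromosome 4 from 129548344 to 129573641 on the minus strand, phosphorylates the CD3 and zeta chains. It had 8.92, 11.8 and 10.2 CPM in ILC2s with eosinophils, against 25.5, 23.3 and 20.5 CPM in ILC2s alone. The groups were far apart, with a log2 fold change of -1.16 ± 0.11 (edgeR adjusted p = 1.09e-10). Fyn, the other SRC family kinase of the receptor, was more abundant and fell alongside, to 112 ± 1.98 CPM with eosinophils, against 279 ± 4.90 CPM alone (log2 fold change -1.31 ± 0.039). Per kb, Fyn exceeded Lck 7.41 ± 1.13 times in ILC2s with eosinophils and 8.16 ± 0.875 times in ILC2s alone, and these ratios differed by less than their spread.

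Zap70, on chromosome 1 from 36761798 to 36782818 on the plus strand, encodes the SYK family kinase that binds the phosphorylated chains. It had 356, 360 and 379 CPM in ILC2s with eosinophils, against 330, 307 and 313 CPM in ILC2s alone. The groups did not overlap, yet the difference was small, with a log2 fold change of 0.20 ± 0.040 (edgeR adjusted p = 4.92e-05). Under library totals it was 0.05 and did not pass (edgeR adjusted p = 0.277). Per kb, Zap70 exceeded Lck 35.1 ± 4.70 times in ILC2s with eosinophils and 13.5 ± 1.27 times in ILC2s alone. Within each library this ratio does not depend on the scaling.

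Among the adaptors, Lat lies on chromosome 7 from 126363824 to 126369570 on the minus strand and encodes the membrane scaffold that ZAP-70 phosphorylates. It had 72.5, 76.4 and 84.1 CPM in ILC2s with eosinophils, against 169, 166 and 174 CPM in ILC2s alone. Every cocultured library was far below every library alone, with a log2 fold change of -1.13 ± 0.048 (edgeR adjusted p = 1.39e-18). Skap1, on chromosome 11 from 96464593 to 96759130 on the plus strand, had 260, 274 and 291 CPM with eosinophils, against 352, 333 and 349 CPM alone. It was lower in all 3 cocultured libraries, with a log2 fold change of -0.32 ± 0.042 (edgeR adjusted p = 6.35e-08). The lincRNA 2010300F17Rik shares 186 exonic bases with Skap1 on the opposite strand and held 336 counts in ILC2s with eosinophils and 816 in ILC2s alone, against 16427 and 20826 counts of Skap1 in the same groups. The sources used here do not give the strand setting of the counting, so reads in the shared bases cannot be assigned.

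Prkcq, on chromosome 2 from 11172108 to 11301222 on the plus strand, encodes protein kinase C theta, which carries the signal from the receptor towards NF-kB. It had 77.4, 85.4 and 100.3 CPM in ILC2s with eosinophils, against 151, 140 and 150.1 CPM in ILC2s alone. The groups were well apart, with a log2 fold change of -0.74 ± 0.059 (edgeR adjusted p = 3.54e-12). Of 2 genes that act after it on that path, Malt1 fell to 40.5 ± 1.30 CPM with eosinophils, against 108 ± 7.55 CPM alone. Bcl10 stood at 51.8 ± 1.04 CPM with eosinophils and 48.1 ± 1.62 CPM alone and did not pass (edgeR adjusted p = 0.0867).

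The order of the genes by level per length differed between the ILC2 groups at the top. In ILC2s with eosinophils the order was Zap70 at 103 ± 3.49 CPM per kb of exon, Trbc2 at 84.6 ± 4.09, Skap1 at 31.2 ± 1.76, Cd3g at 24.8 ± 1.26, Lat at 23.8 ± 1.81, Prkcq at 10.5 ± 1.39, Lck at 2.98 ± 0.411, Cd3e at 0.901 ± 0.0799 and Cd3d at 0.554 ± 0.0685 (SD, n = 3, TMM over all 12 libraries). Cd3g and Lat overlapped in this group, and all other neighbours in the order were separate. In ILC2s alone Trbc2 led at 128 ± 4.38 CPM per kb, ahead of Zap70 at 89.2 ± 3.71, Lat at 51.6 ± 1.48, Skap1 at 38.9 ± 1.28, Cd3g at 21.2 ± 0.785 and Prkcq at 17.5 ± 0.811. The rest of that order was Lck at 6.65 ± 0.735, Cd3e at 1.07 ± 0.0802 and Cd3d at 0.247 ± 0.181 CPM per kb, with no overlap between neighbours. The order depends on the length used. Divided by its longest annotated transcript, Skap1 stood at 111 CPM per kb in ILC2s with eosinophils, second to Zap70, and at 138 CPM per kb in ILC2s alone, ahead of Trbc2. By that length Lat (32.1) and Cd3g (31.9) changed places in ILC2s with eosinophils, as did Prkcq (31.2) and Cd3g (27.3) in ILC2s alone.

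**Figure D3:**
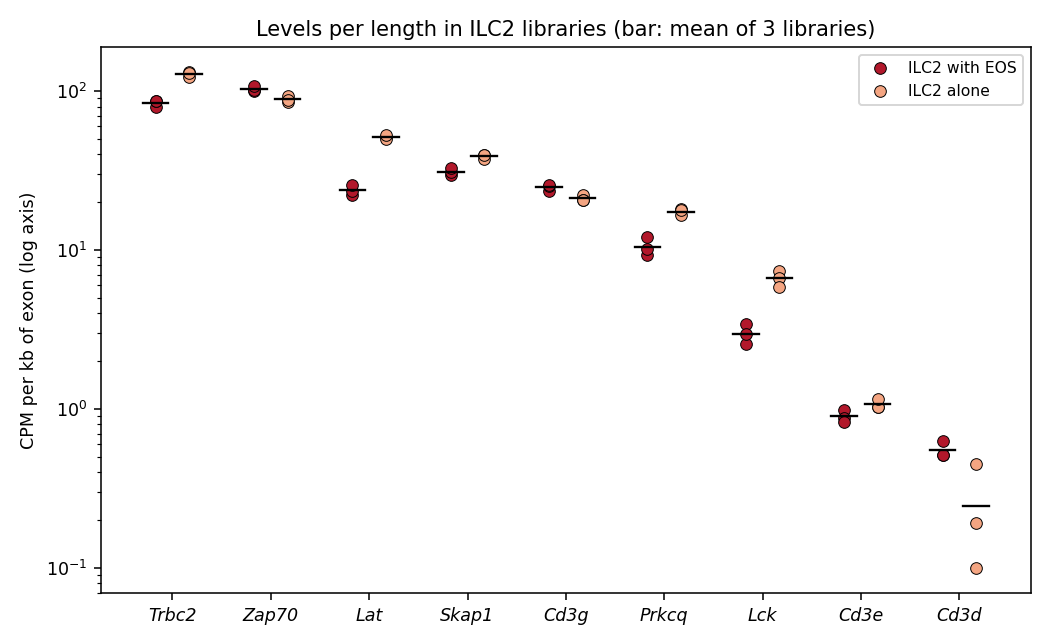
Level per kb of annotated exon (log axis) of the 9 genes in ILC2s with eosinophils and ILC2s alone, in the order of ILC2s alone; points are libraries and bars are means of 3. Zap70, Trbc2, Lat, Skap1, Cd3g and Prkcq lie above 9 CPM per kb in every library, and Cd3e and Cd3d lie at or below 1.16.

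The rest of the receptor pathway was read from 6 lists with 68 genes in all, which leave out the 9 genes above. In ILC2s, 62 were tested, 20 rose, 33 fell and 9 did not pass, with a median log2 fold change of -0.24. These counts, and those of each list below, stand beside 36.8% of all genes tested called higher and 35.6% called lower. Among 5 further kinases, 4 fell and 1 rose. Txk, a TEC family kinase of T cells, fell to 1.99 ± 0.659 CPM with eosinophils, against 4.44 ± 0.310 CPM alone (log2 fold change -1.15 ± 0.22). Tec, a relative found in many blood cells, rose to 70.6 ± 2.73 CPM with eosinophils, against 13.0 ± 1.49 CPM alone (log2 fold change 2.44 ± 0.074, edgeR adjusted p = 5.46e-22). Csk, which restrains the SRC family kinases, fell slightly (log2 fold change -0.19 ± 0.039).

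Of 17 further adaptors 16 were tested, and 4 rose, 9 fell and 3 did not pass (median -0.24). Lax1, a membrane adaptor, fell most, to 19.3 ± 0.786 CPM with eosinophils, against 125 ± 4.08 CPM alone (log2 fold change -2.70 ± 0.057). Pag1, which anchors CSK at the membrane, fell (-1.16 ± 0.045), as did Nck2, which links receptors to actin (-0.68 ± 0.054). Lcp2, which encodes SLP-76, the partner of LAT, fell to 252 ± 3.11 CPM with eosinophils, against 310 ± 7.52 CPM alone (log2 fold change -0.30 ± 0.038). Gab2, a docking protein of cytokine and receptor signalling, rose to 104 ± 3.95 CPM with eosinophils, against 33.9 ± 1.71 CPM alone (log2 fold change 1.62 ± 0.055). Skap2, the paralog of Skap1 in many leukocytes, also rose, to 43.4 ± 0.407 CPM with eosinophils, against 23.6 ± 3.44 CPM alone (log2 fold change 0.88 ± 0.080). Lcp2 and Skap2 were named after their values were seen.

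Among 13 listed regulators, most of which restrain receptor signalling, 5 rose, 7 fell and 1 did not pass (median -0.14). Ptprc, which can also promote that signalling, was among those that rose (log2 fold change 0.20 ± 0.037). Dgka, which consumes the diacylglycerol that activates RAS and protein kinase C theta, fell most, to 122 ± 6.52 CPM with eosinophils, against 577 ± 26.7 CPM alone (log2 fold change -2.24 ± 0.045, edgeR adjusted p = 3.39e-26). The phosphatase gene Ptpn22 fell (-1.44 ± 0.046), and so did the adaptor gene Dok1 (-0.88 ± 0.055). Ubash3a, which limits signalling in T cells, rose (0.81 ± 0.066). Of the 19 downstream genes, 6 rose, 9 fell and 4 did not pass (median 0.00). Plcg1, the phospholipase recruited by LAT, fell to 126 ± 4.37 CPM with eosinophils, against 292 ± 7.59 CPM alone (log2 fold change -1.22 ± 0.040), and Nfatc3 fell (-1.04 ± 0.038). The calcium channel genes of the endoplasmic reticulum parted, with Itpr1 up to 564 ± 37.7 CPM with eosinophils, against 126 ± 2.38 CPM alone (log2 fold change 2.16 ± 0.045), Itpr2 up (1.24 ± 0.038) and Itpr3 down (-0.83 ± 0.039).

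The coreceptor and costimulation list was almost silent. Of its 7 genes, 2 passed the filter on low counts, and Cd4, Cd8a, Cd8b1, Cd5 and Cd6 did not. Cd28, the costimulatory receptor, rose to 2.37 ± 0.524 CPM with eosinophils, against 0.730 ± 0.252 CPM alone (log2 fold change 1.71 ± 0.33, edgeR adjusted p = 3.35e-05). Cd2, an adhesion receptor, fell to 0.669 ± 0.0508 CPM with eosinophils, against 1.25 ± 0.0917 CPM alone (log2 fold change -0.89 ± 0.35, edgeR adjusted p = 0.0263), and this call was lost in DESeq2 (adjusted p = 0.0587), in edgeR when genes of low count were kept (0.0680) or all 12 libraries were fitted (0.0856), and without 5 of the 6 libraries in turn (edgeR, 0.0511 to 0.0869).

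**Figure D4:**
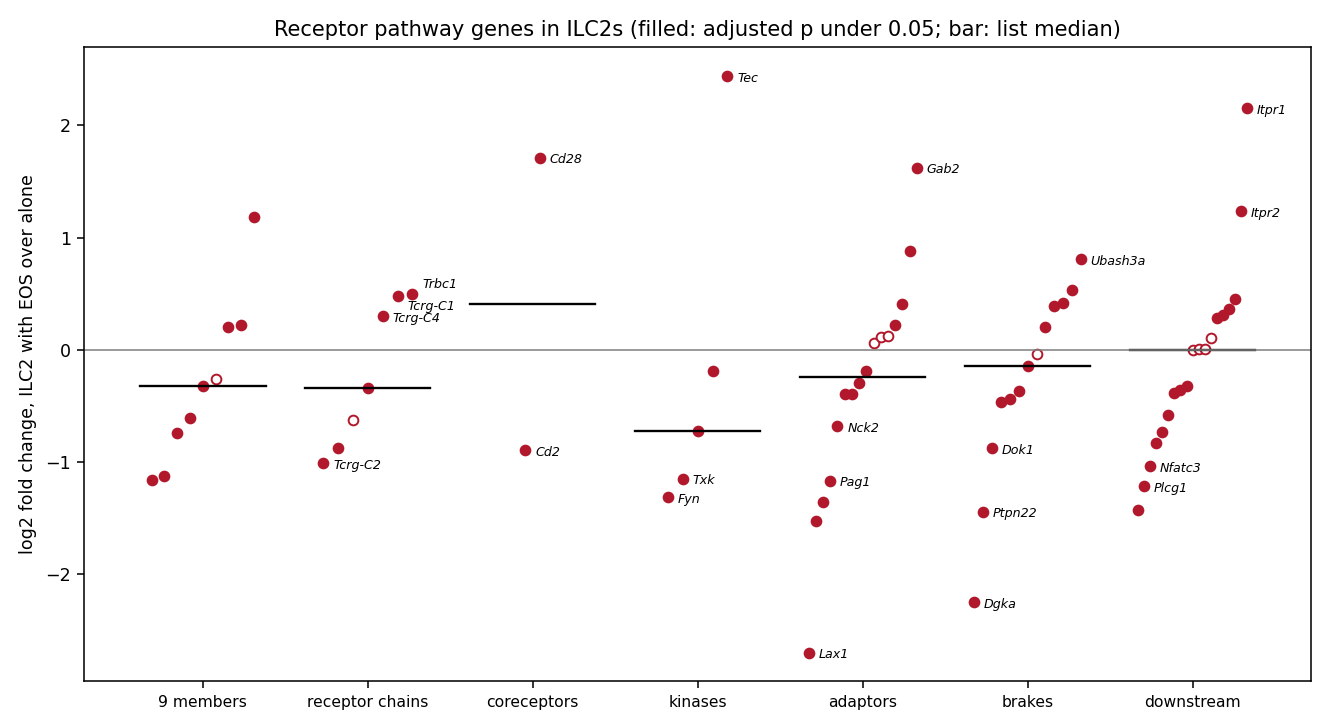
Log2 fold change in ILC2s with eosinophils over ILC2s alone (vertical axis) of the 9 genes and of the tested genes of the 6 pathway lists; points are genes, filled where the adjusted p was under 0.05, and bars are list medians. Genes that rose and genes that fell occur in every list, from Lax1 at -2.70 to Tec at 2.44.

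In eosinophils, 2 of the 9 genes, Cd3d and Prkcq, passed the filter on low counts and were tested. Of the 13109 genes tested there, 11.4% were called higher and 13.5% lower with coculture (1493 and 1771 genes, and 2114 and 1532 under library totals). Prkcq had 222, 211 and 205 CPM in eosinophils with ILC2s, against 299, 316 and 308 CPM in eosinophils alone. All cocultured libraries were lower, with a log2 fold change of -0.53 ± 0.055 (edgeR adjusted p = 7.87e-06). Genes annotated within Prkcq on its strand, such as Gm36932 with 555 counts in eosinophils with ILC2s and 1196 in eosinophils alone, share no exonic bases with it.

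Cd3d had 54, 40 and 28 counts in eosinophils with ILC2s, against 61, 62 and 62 in eosinophils alone. These were 2.80, 1.88 and 1.34 CPM with ILC2s and 3.49, 3.31 and 3.24 CPM alone. The cocultured libraries were all lower and spread widely, and the log2 fold change of -0.74 ± 0.27 did not pass (edgeR adjusted p = 0.0624). The eosinophil groups did not overlap for Cd3d or Prkcq, as for 38.9% of the genes tested there. It passed without replicate 1 of eosinophils with ILC2s (-1.05, edgeR adjusted p = 0.0203) and with limma-voom (-0.81, adjusted p = 0.0393), and was -0.52 (edgeR adjusted p = 0.231) without replicate 3 of that group. No annotated gene overlaps Cd3d.

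The other 7 genes were close to the floor in eosinophils. Trbc2 had 0 counts in all 3 libraries of eosinophils with ILC2s and 2, 1 and 0 counts in eosinophils alone. Lck had 1, 1 and 6 counts with ILC2s and 3, 0 and 1 alone. Lat had the most of the 7, with 13, 6 and 6 counts with ILC2s and 7, 13 and 8 alone. For Cd3g, Trbc2, Lck, Lat, Zap70 and Skap1, the level in eosinophils with ILC2s was 0 to 1.34% of that in ILC2s with eosinophils, and the level in eosinophils alone was 0.0496 to 0.301% of that in ILC2s alone (library totals). By the same measure the ILC2 marker Gata3 stood at 0.0342% in the cocultured cells and 0.131% in the cells alone, and Il7r at 1.41% in the cocultured cells and 0.223% in the cells alone. Il7r fell in the ILC2s that it is divided by (log2 fold change -2.55 ± 0.051). In eosinophils it did not pass (-0.10 ± 0.19, edgeR adjusted p = 0.758). Over all 9 ILC2 markers the range was 0.0342% (Gata3) to 71.3% (Id2) in the cocultured cells and 0.0800% (Rora) to 51.5% (Id2) in the cells alone. Cd3e was at 3.31 ± 2.74% in the cocultured cells and 3.55 ± 2.36% in the cells alone, from 8 and 11 counts in eosinophils.

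ILC2s alone were also set against eosinophils alone, where tissue of origin and cytokine pretreatment differ along with cell type and cannot be told apart from it. Of the 9 genes, 7 were higher in ILC2s and 2 lower. Of the 14525 genes tested, 40.8% were called higher in ILC2s and 39.9% lower (5923 and 5796 genes, and 8587 and 3664 under library totals, which moved the median of all genes up by 0.57 on the log2 scale). Trbc2 had 6356 counts in ILC2s alone and 3 in eosinophils alone, a ratio of 2090 by library totals with a counting interval of 715 to 10135 (95%, exact, counting error only). After coculture, Trbc2 in ILC2s was at least 1316-fold higher than in eosinophils, taking 3 counts over the group as the floor. For Zap70 the ratio of ILC2s alone to eosinophils alone was 1108 (interval 692 to 1903), and for Lck it was 340.3 (interval 133 to 1251). Cd3g (977, interval 418 to 3010.2), Skap1 (1081, interval 692 to 1796) and Lat (362, interval 250.3 to 545) lay between Lck and Zap70, and Cd3e was lower (28.3, interval 15.6 to 57.3).

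The 2 genes on the eosinophil side differed in level. Prkcq had 130.3, 121 and 130.4 CPM in ILC2s alone, against 358, 377 and 369 CPM in eosinophils alone (TMM for this comparison), with a log2 fold change of -1.53 ± 0.058 (edgeR adjusted p = 2.20e-12). Under library totals it was -0.96 and still passed. Cd3d had 0.833, 0.186 and 0.359 CPM in ILC2s alone, against 4.16, 3.95 and 3.89 CPM in eosinophils alone, with a log2 fold change of -3.14 ± 0.39 (edgeR adjusted p = 2.74e-06). The groups did not overlap for either gene, as for 82.3% of the genes tested. Cd3d per kb of exon averaged 2.15 ± 0.0788 CPM in eosinophils alone, below Prkcq at 50.8 ± 1.16 CPM per kb in the same libraries. By library totals, the 10 alpha beta T cell markers summed to 1.01 to 1.21 CPM in eosinophils with ILC2s and 0.813 to 2.62 CPM in eosinophils alone. Foxp3 was the highest of them, at a mean of 0.592 CPM with ILC2s and 0.962 CPM alone. Cd4, Cd8a, Cd8b1 and Cd40lg had 0 counts in eosinophils alone. Receptor alpha segments summed to more than these markers, at 6.34 to 8.55 CPM in eosinophils with ILC2s and 5.64 to 13.8 CPM in eosinophils alone. These segment sums stood above the 1.41 to 4.25 CPM of the ILC2 libraries. Trac, the alpha constant gene, was at 0.0480 to 0.474 CPM in eosinophils with ILC2s and 0.254 to 1.47 CPM in eosinophils alone. Basophil and mast cell markers summed to 19.8 to 21.8 CPM in eosinophils with ILC2s and to 38.2 to 46.4 CPM in eosinophils alone. Macrophage and dendritic cell markers summed to far more, at 1783 to 1810 CPM with ILC2s and 1866 to 1923 CPM alone, led by Adgre1. B cell markers came to 16.5 to 18.5 CPM with ILC2s and 12.3 to 14.6 CPM alone, led by Cd79a. The part of other cells in the Cd3d and Prkcq values was not tested.

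The responses of the 2 cells were set against each other for Cd3d and Prkcq, since the other 7 genes did not pass the filter on low counts in eosinophils. The model of all 12 libraries called 26.8% of 15745 genes higher and 24.8% lower in this difference (4215 and 3899 genes, and 3357 and 5112 under library totals). For Cd3d the ILC2 response minus the eosinophil response was 1.91 ± 0.52 on the log2 scale (edgeR adjusted p = 0.00375), with opposite signs in the 2 cells. For Prkcq it was -0.23 ± 0.096 (edgeR adjusted p = 0.0477), a larger fall in ILC2s than in eosinophils, and it no longer passed in 7 of the 12 fits that left out 1 library (edgeR adjusted p up to 0.202, where the difference was -0.15 without replicate 1 of ILC2s with eosinophils).

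For each of the 9 genes the 2 genes with the most similar pattern over the 12 libraries were found among 9595 genes that averaged 8 CPM or more in an ILC2 group, as the smallest root mean square difference of centred log2(CPM + 1). For Trbc2 these were Slc9a9 (0.0842) and Kbtbd11 (0.154), for Cd3g Bhlhb9 (0.103) and Cntn1 (0.168), and for Zap70 Ctla2a (0.186) and Sh2d2a (0.204). Sh2d2a encodes a T cell adaptor protein and is on the adaptor list above. For Lat they were Nav2 (0.157) and Cd96 (0.204), a receptor gene of T and natural killer cells, for Lck St5 (0.138) and Firre (0.147), and for Skap1 Podnl1 (0.212) and Bcl11b (0.214), which encodes a transcription factor of T cells and ILC2s. For Cd3e they were Il2rg (0.126), the common gamma chain, and Prmt2 (0.127), for Prkcq Smurf1 (0.119) and Fbxl5 (0.125), and for Cd3d Rtn4ip1 (0.190) and Capg (0.192). The added 1 CPM flattens differences of genes near or below that level in either cell, so a near gene need not share the fold difference. Cd3e averaged 4.37 CPM in ILC2s alone and 0.233 CPM in eosinophils alone, against 268 and 56.4 CPM for Il2rg (TMM over all 12 libraries). The root mean square spread of the 9 genes themselves ran from 0.711 (Cd3d) and 0.886 (Prkcq) to 3.08 (Trbc2) and 3.93 (Zap70), so equal distances do not mean equal likeness. Most of this spread lies between the 2 cell types, so likeness is a description over libraries that share cell type and depth.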

How the data were processed

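RNA from 12 mouse libraries, 3 for each of 4 groups, was sequenced by the submitters (Trizol, NEBNext Ultra II, per the labels' protocols). The deposited values are raw read counts per Ensembl gene, without normalization. Per the submitters' processing notes, the tools were STAR 2.5.2b, featureCounts, Subread 1.5.2, Trimmomatic 0.36 and bcl2fastq 2.17, and the build was mm10. The sources used here do not give the annotation release, how strand was set or what was done with reads matching several places, and each could move counts of overlapping or near-identical genes. Of 49315 identifiers, 48970 had a symbol. Gene positions and exon lengths came from GENCODE M21, and start windows from RefSeq (GRCm38.p6).

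Groups were tested with edgeR 4.0.16 (R 4.3.3) by the quasi-likelihood F test after filterByExpr and TMM scaling, with Benjamini-Hochberg adjustment over all genes tested and a threshold of 0.05. Each comparison of a pair of groups was fitted on its 6 libraries, and the difference of responses on all 12. The SE was obtained as the size of the log2 fold change over the square root of its F. CPM are counts per 1000000 counts of a library, by library totals or TMM as stated. The fits were tested on simulated data. Alternatives were DESeq2 1.42.0, limma-voom 3.58.1, 2 other scalings, 2 other low-count filters, the fit of all 12 libraries, a replicate block and leaving out each library.

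Values for all 9 genes are given in each comparison of a pair of groups, and for the difference of responses those of the 2 genes that passed the low-count filter in both cells. From each pathway list up to 4 genes are named by smallest p in the ILC2 comparison, and further list genes were picked once their values were known. Some genes that this rule names are not reported here. The members and lists were chosen with earlier results of these data known. Library totals of 16769929 to 22928961 counts set a floor of 0.131 to 0.179 CPM at 3 counts. Intervals and floors cover counting error only. Replicates of a group differed by more than counting noise, at 2.57 to 19.5 times the chi-square expected per degree of freedom, so each was counted on its own.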

Additional observations from a re-analysis of the deposited data

Results flagged for a closer look

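Both genes that could be tested in each of the 2 cells passed the test for a difference in response to coculture, and such calls were common. Over all 15745 genes tested, 26.8% were called higher and 24.8% lower in this difference. For Cd3d the ILC2 response minus the eosinophil response was 1.91 on the log2 scale (edgeR adjusted p = 0.00375). All 3 cocultured ILC2 libraries lay above those of ILC2s alone, and all 3 cocultured eosinophil libraries lay below those of eosinophils alone. Cd3d held only 4 to 28 counts in an ILC2 library. Its call in ILC2s was lost in 3 alternative fits, and in eosinophils it did not pass (edgeR adjusted p = 0.0624). For Prkcq the difference was -0.23 (edgeR adjusted p = 0.0477), with lower values in all 3 cocultured libraries of either cell. Groups without overlap were also seen for 74.9% of all genes tested in ILC2s and 38.9% in eosinophils (TMM-scaled). The Cd3d difference passed in all 19 alternative fits (adjusted p 0.000373 to 0.0157), and the Prkcq difference passed in 12 of 19.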

How the results depend on the processing

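In ILC2s, Trbc2, Lck, Lat, Prkcq and Skap1 kept their direction and their call in all 14 alternatives, as all 9 genes did in the cell type comparison. Under library totals the number of the 9 genes called higher in cocultured ILC2s was 1, with Cd3g and Zap70 lost. In eosinophils, the number called lower was 2 with limma-voom, since Cd3d then passed, and 1 to 2 when a library was left out. Genes called higher in cocultured eosinophils were 2276 in the fit of all 12 libraries and 948 to 1604 when a library was left out, with 948 without replicate 3 of eosinophils with ILC2s. Genes called lower in ILC2s than in eosinophils were 3664 under library totals. In the difference of responses, the number of members called lower was 0 to 1 when a library was left out. The cause of these shifts was not tested. Same-numbered libraries shared little of their deviation from the group means in the comparisons of a pair of groups (correlation -0.0111 to 0.184). With 3 libraries a group this cannot show whether samples were paired. Cocultured ILC2s were not checked in this way against cocultured eosinophils. With the replicate block, members called lower in eosinophils were 2, since Cd3d passed (-0.78, edgeR adjusted p = 0.0267), and genes called in eosinophils were 2029 higher and 2139 lower. In eosinophils, differences in Trbc2, Cd3g and Lck were not detectable at this depth, since no library there held more than 6 counts of any of them.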
